A study of Mus musculus with 14 samples.

Results

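The 9 genes described here are the leukocyte integrins and the adhesion molecules they bind: the alpha chains Itgam, Itgal and Itga4, the beta chains Itgb2 and Itgb7, the integrin activator Fermt3, and the ligands Icam1, Icam2 and Vcam1. They were chosen by symbol from the 23282 genes of the deposited table, and all 9 symbols matched 1 row each. RNA came from epididymal white adipose tissue (eWAT), the fat pad beside the testis, of wild type male C57BL/6J mice that were 4 weeks old when obtained. There were 9 libraries of the control group, fed normal diet, and 5 of the WD group, fed Western diet, a diet rich in saturated fat with added cholesterol, in both cases for 20 weeks. The labels give a batch: batch 1 held control replicates 1 to 4 and all 5 WD replicates, and batch 2 held control replicates 5 to 9, so diet was compared mainly within batch 1. What the batch numbers stand for was not stated in the sources used here.

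Integrins are cell surface receptors made of 1 alpha and 1 beta chain. Those of leukocytes are kept inactive on circulating cells and switch on when talin and kindlin bind the beta chain's tail, after which the cell holds to ICAM or VCAM molecules on the vessel wall and moves into the tissue. In adipose tissue this route is known for bringing monocytes and lymphocytes into expanding fat, and the chains themselves are also carried by the macrophages that live there.

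The libraries held 10278970 to 13712254 counts each. QuantSeq reads the 3′ end of each transcript, so counts do not grow with gene length, and levels are given as CPM, the counts of a gene per 1000000 counts of the library, scaled with TMM factors over the 14 libraries. A pair of control libraries stood apart. Control 1 carried 2.56% of its counts on 8 epididymis genes (at most 0.00139% in any other library) and had the lowest summed level of 5 adipocyte markers, 4500 CPM against 20828 to 45111 in the others. Control 4 had 7999 genes with a count, against 10903 to 13780 elsewhere. No adipocyte marker was at 0 in any library. For this reason the diet fits within batch 1 and over 14 libraries and the permutation tests of single genes are also given with both left out. Of the 9 genes, 3 had no count in control 1 and 2 had none in control 4, as was also the case for 3 in control 6 and 2 in WD 5, and the other 10 libraries had 0 or 1 such gene.

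Levels of the 9 genes were low for this depth. Itgal, Itgb7 and Icam1 had no count in 4 libraries each, Icam2 in 2 and Fermt3 in 1, whereas Itgam, Itgb2, Itga4 and Vcam1 were counted in every library. A 0 here sets only an upper limit of 3 counts, 0.219 to 0.292 CPM in these libraries before TMM scaling. With TMM scaling, 3 counts stood at 0.324 CPM in control 1. The limit covers counting error only, since copies made by PCR cannot be told from separate molecules.

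Itgam and Itga4, alpha chains that pair with different beta chains, each had every WD library of batch 1 above every control of that batch. So did 3.03% of all genes tested, and the edgeR p adjusted over all genes was 0.835 for Itgam and 0.966 for Itga4. The bases before the start sites of both genes are shown because of this separation. Sequences are the 250 bases before the transcription start, from RefSeq on GRCm38.p6, at chr7:128062390-128062639 (plus strand) for Itgam and chr2:79255176-79255425 (plus strand) for Itga4. Capitals mark the PU.1 core (GAGGAA, read on both strands), the core site of a transcription factor that defines myeloid cells.
Itgam: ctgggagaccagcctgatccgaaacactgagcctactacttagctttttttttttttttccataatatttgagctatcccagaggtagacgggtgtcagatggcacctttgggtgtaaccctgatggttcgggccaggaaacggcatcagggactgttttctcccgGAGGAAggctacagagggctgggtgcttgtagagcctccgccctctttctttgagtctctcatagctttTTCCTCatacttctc
Itga4: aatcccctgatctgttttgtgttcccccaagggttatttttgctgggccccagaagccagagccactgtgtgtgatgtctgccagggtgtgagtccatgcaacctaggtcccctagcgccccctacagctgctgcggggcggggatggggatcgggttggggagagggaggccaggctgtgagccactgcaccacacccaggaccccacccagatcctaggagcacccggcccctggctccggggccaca
The Itgam window held the core at 84 and 15 bases before the start and, with the 50 bases after the start included, again 32 bases after it. The Itga4 window held none. A RefSeq promoter window of 300 bases was at hand for 5 members (Itga4, Itgam, Icam1, Itgb7 and Fermt3), and Vcam1 was not among them. Of these 5, Itgam and Itgb7 held the core and 0 held the NF-kappaB consensus (GGGRNNYYCC), while 28.3% and 8.46% of 32851 promoters held these letters. Sites that depart from these letters were not searched. A match is only a match of letters.

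Gene positions are those of the deposited table, on GRCm38. Itgam (integrin alpha M, CD11b; chromosome 7, 128062640 to 128118491, plus strand) is the alpha chain of the complement receptor on macrophages, monocytes and neutrophils. In the batch 1 controls it measured 33.6, 21.1, 16.3 and 38.0 CPM (replicates 1 to 4), and in the WD libraries 61.8, 64.7, 56.5, 39.1 and 49.9 CPM (replicates 1 to 5). In the batch 2 controls it measured 31.0, 4.77, 13.3, 26.1 and 46.1 CPM (replicates 5 to 9). The lowest WD library lay just above the highest batch 1 control, and batch 2 control 9 lay above WD 4, so the groups overlapped once batch 2 was added. Means were 27.2 ± 10.2 CPM in batch 1 controls (SD, n = 4), 24.3 ± 16.02 in batch 2 controls (n = 5) and 54.4 ± 10.2 in WD (n = 5), a ratio of 2.00 within batch 1.

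Itgb2 (integrin beta 2, CD18; chromosome 10, 77530348 to 77565674, plus strand) is the beta chain shared by Itgam, Itgal and Itgax. It measured 0.324, 11.6, 6.34 and 86.2 CPM in the batch 1 controls and 46.1, 12.7, 59.4, 67.6 and 32.2 CPM in the WD libraries. In the batch 2 controls it measured 12.6, 9.91, 8.91, 16.05 and 8.68 CPM. Control 4, with 1187 counts, was the highest of all 14 libraries and control 1, with 3 counts, the lowest, whereas the batch 2 controls lay close together and 4 of the 5 WD libraries stood above all of them. Means were 26.1 ± 40.3 CPM (SD, n = 4) and 11.2 ± 3.11 CPM (n = 5) in the controls of batch 1 and batch 2, and 43.6 ± 21.9 CPM in WD (n = 5).

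Itgal (integrin alpha L, CD11a; chromosome 7, 127296260 to 127335137, plus strand) completes LFA-1, the main integrin of lymphocytes, with Itgb2. It had 0, 2, 81 and 47 counts in the batch 1 controls, 88, 3, 86, 66 and 0 in the WD libraries, and 0, 0, 25, 33 and 15 in the batch 2 controls. Each group had 2 libraries with 3 counts or fewer. The batch 2 controls reached at most 33 counts, and 3 of the 5 WD libraries lay above all of them in CPM. Means were 2.58 ± 3.19 CPM in batch 1 controls (SD, n = 4), 1.18 ± 1.14 in batch 2 controls (n = 5) and 3.62 ± 3.19 in WD (n = 5).

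Itga4 (integrin alpha 4, CD49d; chromosome 2, 79255426 to 79333114, plus strand) pairs with Itgb1 to bind Vcam1 and with Itgb7 to bind the mucosal ligand Madcam1. It measured 3.89, 16.5, 18.2 and 20.1 CPM in the batch 1 controls and 32.1, 23.3, 28.9, 56.2 and 37.6 CPM in the WD libraries. In the batch 2 controls it measured 18.996, 19.06, 16.1, 14.6 and 15.5 CPM. All 5 WD libraries lay above all 9 controls, and apart from control 1 the controls spanned only 14.6 to 20.1 CPM. Means were 14.7 ± 7.34 (SD, n = 4), 16.8 ± 2.07 (n = 5) and 35.6 ± 12.6 CPM (n = 5) in batch 1 controls, batch 2 controls and WD. The 3′ end of Itga4 overlaps Cerkl on the other strand by 624 bases, and Cerkl had at most 2 counts in any library.

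Itgb7 (integrin beta 7; chromosome 15, 102215995 to 102231935, minus strand), the beta chain of gut-homing lymphocytes, had 0, 0, 42 and 20 counts in the batch 1 controls, 22, 53, 69, 75 and 0 in WD, and 28, 0, 41, 134 and 64 in the batch 2 controls. The highest library was a batch 2 control, and means were 1.24 ± 1.66 (SD, n = 4), 4.33 ± 4.03 (n = 5) and 3.66 ± 2.70 CPM (n = 5) in batch 1 controls, batch 2 controls and WD. Among 5 T cell markers, Cd3e had no count in 8 of the 9 controls, Cd3g in 7, Lck in 6, and Cd3d and Cd2 in 2 each, and in WD Cd3e, Cd3g and Lck had none in 3 of the 5 libraries, Cd3d in 2 and Cd2 in 0. The 5 markers summed to 0 to 8.76 CPM in controls and 6.64 to 32.2 CPM in WD. The part of lymphocytes in Itgal, Itga4 and Itgb7 was not tested.

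Fermt3 (kindlin-3; chromosome 19, 6998958 to 7019469, minus strand) is the kindlin of blood cells, which binds beta chain tails and is needed for integrin activation. It measured 0.324, 9.26, 5.84 and 0 CPM in the batch 1 controls and 24.4, 3.54, 25.9, 13.6 and 10.7 CPM in the WD libraries. In the batch 2 controls it measured 10.9, 8.10, 6.29, 15.1 and 1.90 CPM. In batch 1, 4 of the 5 WD libraries lay above every control and WD 2 lay among them, while in batch 2 control 8 exceeded 3 of the WD libraries. Means were 3.85 ± 4.49 (SD, n = 4), 8.44 ± 4.93 (n = 5) and 15.6 ± 9.44 CPM (n = 5) in batch 1 controls, batch 2 controls and WD.

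The last 89 bases of Fermt3 (chr19:6998958-6999046) are also the last bases of Trpt1, a tRNA phosphotransferase gene on the other strand, and in a 3′ assay that stretch lies where reads fall. Trpt1 had 18, 137, 68 and 0 counts in the batch 1 controls and 246, 1, 273, 158 and 77 in WD, beside 3, 111, 70 and 0 and 345, 33, 350, 172 and 128 counts of Fermt3. The edgeR log2 fold change of Trpt1 in batch 1 was 1.24 (SE 1.51). Of 12653 genes, Trpt1 was the one whose levels ranked most like those of Fermt3 over the 14 libraries (Spearman rho 0.934, a description). Whether counting used strand was not stated in the sources used here, so reads of the shared stretch may stand in both rows and Fermt3 values are uncertain.

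**Figure D1:**
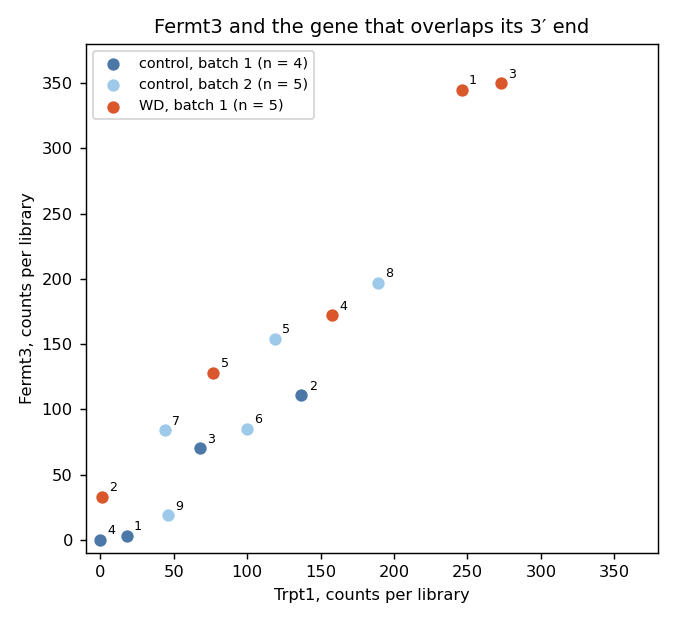
Counts of Fermt3 (vertical) against counts of Trpt1 (horizontal), 1 point per library, numbered by replicate and coloured by group. Libraries with few Trpt1 counts had few Fermt3 counts, from 0 of both in control 4 to 273 of Trpt1 and 350 of Fermt3 in WD 3.

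Vcam1 (chromosome 3, 116110020 to 116129688, minus strand), the ligand of Itga4 with Itgb1, is induced on endothelium by cytokines and is also made by some macrophages. It measured 10.04, 36.5, 30.8 and 23.95 CPM in the batch 1 controls and 46.7, 46.2, 97.5, 62.9 and 51.7 CPM in WD. In the batch 2 controls it measured 21.04, 14.4, 10.2, 26.7 and 9.78 CPM. Every WD library lay above every one of the 9 controls, with WD 3 the highest. Means were 25.3 ± 11.4 (SD, n = 4), 16.4 ± 7.30 (n = 5) and 61.0 ± 21.5 CPM (n = 5) in batch 1 controls, batch 2 controls and WD, and WD was 2.41 times the batch 1 controls.

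Icam1 (chromosome 9, 21015960 to 21028796, plus strand), the inducible ligand of LFA-1 and of Itgam with Itgb2, had 2, 33, 130 and 0 counts in the batch 1 controls, 198, 31, 139, 126 and 13 in WD, and 25, 0, 0, 59 and 0 in the batch 2 controls. It was counted in all 5 WD libraries and had no count in 4 of the 9 controls, but control 3 lay above 4 of the WD libraries in CPM. Means were 3.45 ± 5.08 (SD, n = 4), 1.25 ± 1.97 (n = 5) and 7.73 ± 5.34 CPM (n = 5) in batch 1 controls, batch 2 controls and WD.

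Icam2 (chromosome 11, 106377656 to 106382641, minus strand), a ligand that endothelium carries at rest, had 0, 239, 115 and 328 counts in the batch 1 controls, 152, 216, 310, 0 and 76 in WD, and 69, 144, 111, 127 and 96 in the batch 2 controls. Control 1 and WD 4 had none. The batch 2 controls spanned 4.87 to 13.7 CPM, while the highest library was at 23.8 CPM in batch 1 controls and 23.2 CPM in WD, where 2 of the 5 lay above every batch 2 control. Means were 13.3 ± 10.7 (SD, n = 4), 9.24 ± 3.18 (n = 5) and 12.6 ± 10.3 CPM (n = 5) in batch 1 controls, batch 2 controls and WD. Icam1 and Vcam1 each overlap an annotated antisense gene (Gm47079 and Gm43109), and Itgam overlaps the protein-coding gene Gm49368 on its own strand. None of these 3 has a row in the table.

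**Figure D2:**
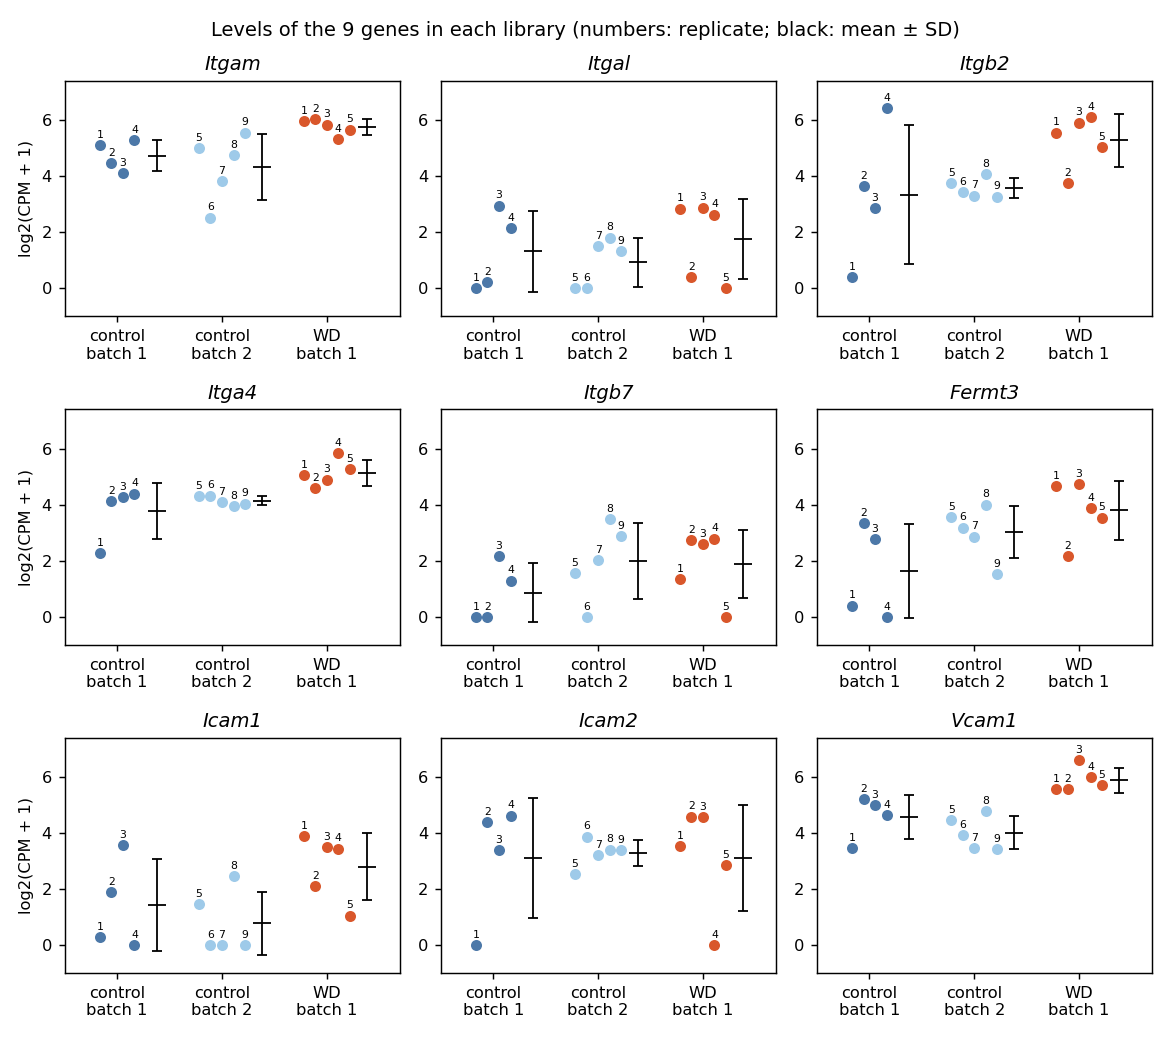
Level of each of the 9 genes, log2(CPM + 1) on the vertical axis, in control batch 1 (n = 4), control batch 2 (n = 5) and WD (n = 5), with 1 point per library numbered by replicate and the mean ± SD in black. Itga4 and Vcam1 had all 5 WD libraries above all 9 controls, as did 1.13% of all genes tested, whereas Itgal, Itgb7 and Icam2 overlapped widely.

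The first comparison asked whether WD feeding changed these genes within batch 1, with 5 WD against 4 control libraries. By edgeR's quasi-likelihood test with Benjamini-Hochberg adjustment over 12157 genes, 0 of the 9 had an adjusted p (FDR) under 0.05, as was the case for 0% of all genes. At an unadjusted p under 0.05, 3 of the 9 were higher in WD, beside 3.35% of all genes called the same way. That count of 3 was 2 in edgeR with other size factors or without the filter on low counts. It was 1 without control 2, control 3 or WD 1 and 0 without WD 3. DESeq2 and limma-voom also gave 0 of the 9 at an FDR under 0.05, although DESeq2 called 114 other genes. The edgeR log2 fold change of Vcam1 was 1.26 (SE 0.45, FDR 0.661), that of Itgam 0.99 (SE 0.40, FDR 0.835) and that of Itga4 1.28 (SE 0.59, FDR 0.966).

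The other 6 genes had wide errors. The log2 fold change was 2.01 for Fermt3 (SE 1.38), 1.55 for Itgb7 (SE 2.01), 1.16 for Icam1 (SE 1.58), 0.74 for Itgb2 (SE 1.01), 0.49 for Itgal (SE 1.90) and -0.08 for Icam2 (SE 1.45), with edgeR FDR of 1.00 for each. With 1 library left out, Itgb2 ranged from 0.33 (without control 1) to 2.82 (without control 4), Icam1 from 0.73 (without control 4) to 2.92 (without control 3), Itgal from 0.07 (without control 2) to 1.55 (without control 3), and Itgb7 from 1.12 (without control 2) to 2.85 (without control 3). The median over the 9 was 1.16, beside 0.03 over all genes tested. Among all genes, 407 were higher and 221 lower at an unadjusted p under 0.05, a split that became 325 and 300 with DESeq2's size factors in the same edgeR test.

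Every WD library lay above every batch 1 control for 3 of the 9 genes (Itgam, Itga4 and Vcam1), as it did for 3.03% of all genes tested. Two-sided exact permutation tests of log2(CPM + 1) gave p = 0.00794 for each of these 3, the smallest p that the 126 ways to arrange 5 and 4 libraries allow, with mean differences of 1.03 for Itgam, 1.36 for Itga4 and 1.31 for Vcam1. Fermt3 differed by 2.16 (exact permutation p = 0.0635), Itgb2 by 1.93 (p = 0.143), Icam1 by 1.36 (p = 0.190), Itgb7 by 1.03 (p = 0.198), Itgal by 0.42 (p = 0.635) and Icam2 by 0.01 (p = 1). Without control 4, the difference of Itgb2 was 2.97 (exact permutation p = 0.0179). That of Fermt3 had an exact permutation p of 0.0357 without control 2 or control 3 and 0.0286 without WD 2.

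Leaving out both control 1 and control 4, a choice made after seeing the data, kept all 5 WD libraries above the remaining 2 controls for Itgam, Itga4, Vcam1 and also Itgb2. The share of all genes separated in this way was not computed for this setting. With 2 controls left, 1 of 21 arrangements puts all WD libraries on top. The exact permutation p was then 0.0476 for Itgam and Itgb2, the smallest that 21 arrangements allow, and 0.0952 for Itga4 and Vcam1. The edgeR log2 fold changes were 1.54 for Itgam (SE 0.40, FDR 0.117), 2.28 for Itgb2 (SE 0.65, FDR 0.172), 1.04 for Itga4 (SE 0.49, FDR 0.538) and 0.86 for Vcam1 (SE 0.40, FDR 0.533). Fermt3 stood at 1.05 (SE 0.87), Itgb7 at 1.06, Icam1 at 0.19, Itgal at 0.07 and Icam2 at -0.22.

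Over all 14 libraries, with 9 controls against 5 WD, 0 of the 9 genes had an edgeR FDR under 0.05, where 0.435% of 12653 genes were called higher in WD. At an unadjusted p under 0.05, 3 of the 9 were higher, beside 4.48% of all genes. Vcam1 came nearest, with a log2 fold change of 1.56 (SE 0.37, edgeR FDR 0.0640), and passed the threshold in DESeq2 (FDR 0.0114) and limma-voom (FDR 0.0214). Its edgeR FDR was also under 0.05 without control 1 (0.0389), control 2 (0.0359) or control 4 (0.0211). Itga4 followed with 1.15 (SE 0.39, edgeR FDR 0.293) and Itgam with 1.07 (SE 0.39, FDR 0.376).

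For Itgb2 the log2 fold change was 1.26 (SE 0.73, edgeR FDR 0.811) and became 2.22 (FDR 0.0379) without control 4. With controls 1 and 4 both left out, Itgb2 reached 2.03 (SE 0.37, edgeR FDR 0.00199), Vcam1 1.502 (FDR 0.0110) and Itga4 1.06 (FDR 0.0307). In that fit 3 of the 9 were called higher in WD, beside 385 genes higher and 234 lower of 12428 tested. Icam1, Fermt3, Itgal, Itgb7 and Icam2 stood at 1.79, 1.27, 0.99, 0.29 and 0.16 on the log2 scale over the 14 libraries, with edgeR FDR of 0.923 to 1.00. In a fit with batch as a covariate, 0 of the 9 and 1 of all genes had an edgeR FDR under 0.05.

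All 5 WD libraries lay above all 9 controls for 2 of the 9 genes, Itga4 and Vcam1, beside 1.13% of all genes tested. The exact permutation p was 0.0005 for Itga4, the smallest that 2002 arrangements allow, 0.00150 for Vcam1, 0.00949 for Itgam, 0.0380 for Icam1 and 0.0385 for Itgb2. For Icam1 it rose to between 0.0591 and 0.0881 when any one of control 1, 4, 6, 7 or 9 or WD 1, 3 or 4 was left out, and for Itgb2 to between 0.0505 and 0.0965 without control 3 or 9 or WD 1, 3, 4 or 5. With controls 1 and 4 both left out, the exact permutation p was 0.0972 for Icam1, 0.00253 for Itgb2, 0.00126 for Itga4, 0.00379 for Vcam1 and 0.00758 for Itgam. Fermt3 had an exact permutation p of 0.0804 (0.0336 without WD 2), Itgal 0.352, Itgb7 0.572 and Icam2 0.919.

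WD libraries were also compared with the 5 batch 2 controls alone, where diet and batch cannot be told apart. This comparison and the previous ones share the WD libraries, and those over 14 libraries share controls with both, so they are not independent. By edgeR, 3 of the 9 genes rose with an FDR under 0.05, beside 3.93% of 12070 genes called higher. Vcam1 had a log2 fold change of 1.88 (SE 0.33, FDR 0.00210), Itgb2 1.95 (SE 0.40, FDR 0.00600) and Itga4 1.07 (SE 0.30, FDR 0.0437). The call of Itga4 was lost without any one of WD 1, 3, 4 or 5 or of the 5 controls (FDR 0.0601 to 0.103), with library totals alone (0.0533) and without the filter on low counts (0.0621), and those of Vcam1 and Itgb2 were kept in each of these.

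Itgam stood at 1.15 (SE 0.43, edgeR FDR 0.141), Icam1 at 2.60 (SE 1.38), Itgal at 1.61 (SE 1.58), Fermt3 at 0.87 (SE 0.59), Icam2 at 0.43 (SE 0.84) and Itgb7 at -0.25 (SE 1.25) on the log2 scale. Every WD library was above every batch 2 control for Itga4 and Vcam1, 2 of the 9, beside 4.79% of all genes tested.

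The controls of the 2 batches, on the same diet, were compared with each other. By this test 0 of the 9 and 0% of 12106 genes had an edgeR FDR under 0.05, and DESeq2 gave 0 of the 9 and 111 genes. At an unadjusted p under 0.05, 0 of the 9 were called, beside 7.39% of all genes (466 higher and 429 lower in batch 2, or 369 and 591 with DESeq2's size factors). The errors were wide. Log2 fold changes were -1.22 for Itgb2 (SE 1.03), 1.79 for Itgb7 (SE 1.92), 1.12 for Fermt3 (SE 1.40) and -1.46 for Icam1 (SE 2.13). They were -1.13 for Itgal (SE 1.92), -0.54 for Icam2 (SE 1.11), -0.63 for Vcam1 (SE 0.55), -0.18 for Itgam (SE 0.61) and 0.19 for Itga4 (SE 0.59).

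**Figure D3:**
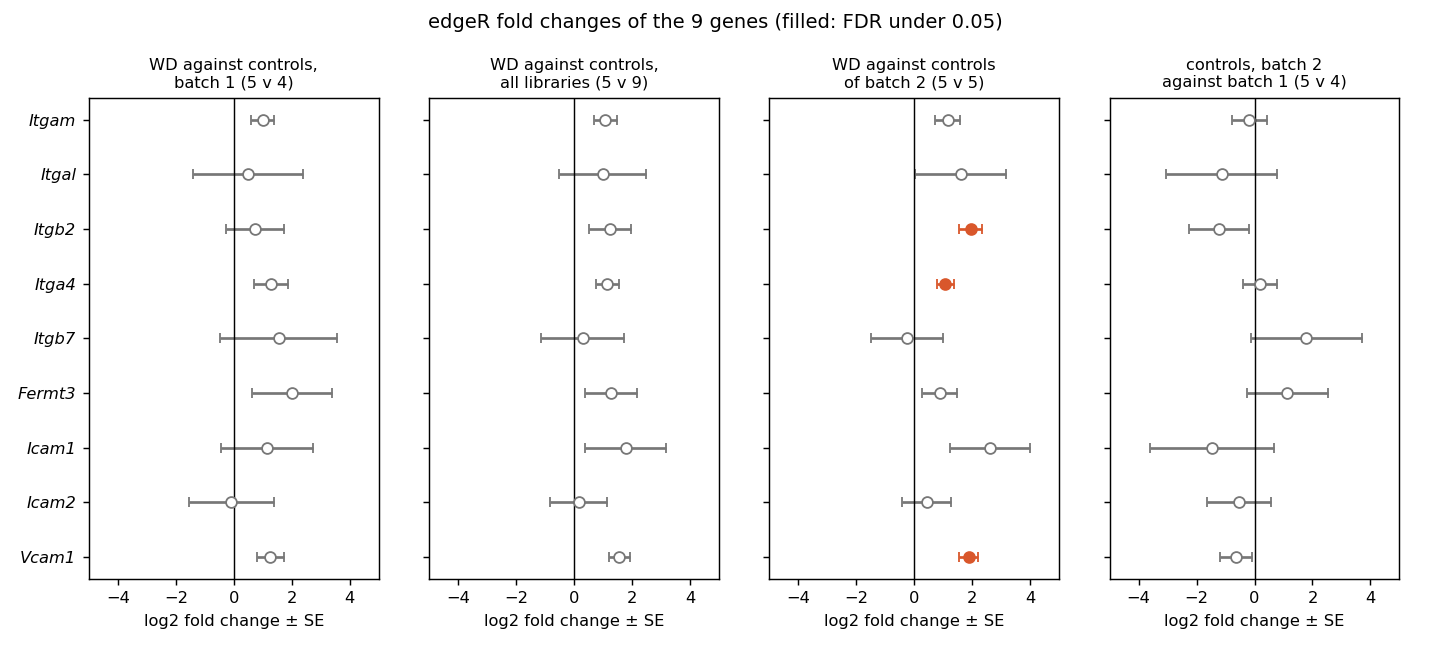
edgeR log2 fold changes with their SE (horizontal) for the 9 genes in 4 comparisons. Points are filled where the FDR was under 0.05, which held only for Itgb2, Itga4 and Vcam1 in WD against the batch 2 controls. The SE of Itgam, Itga4 and Vcam1 was at most 0.61 in every comparison, and that of Itgal and Itgb7 at least 1.25.

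In a piece of tissue, more cells of a type and more RNA per cell cannot be told apart, so the genes were set beside markers. Summed levels of 4 pan-leukocyte markers (Ptprc, Cd53, Laptm5 and Coro1a) were 54.5 to 237 CPM in batch 1 controls, 91.4 to 156 in batch 2 controls and 282 to 499 in WD. Those of 5 macrophage markers (Adgre1, Cd68, Csf1r, C1qa and C1qb) were 308 to 1321, 308 to 634 and 1457 to 2820 CPM. Both lists had every WD library above every control, but by edgeR 0 of the 5 macrophage and 0 of the 4 pan-leukocyte markers had an FDR under 0.05 in batch 1 (4 and 3 had an unadjusted p under 0.05). Over 14 libraries 4 and 1 had an FDR under 0.05, and against the batch 2 controls all 5 and all 4 did.

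Endothelial markers (Pecam1, Cdh5, Tek, Kdr, Emcn and Erg) summed to 58.3 to 244, 63.3 to 184 and 75.2 to 125 CPM and overlapped, and 0 of the 6 had an FDR or an unadjusted p under 0.05 by edgeR in any of the 3 diet comparisons. The 4 neutrophil markers in the table, of a cell type that also carries Itgam and Itgb2, summed to 139 to 307, 38.6 to 138 and 56.3 to 162 CPM in batch 1 controls, batch 2 controls and WD. B cell markers stood at 2.82 to 9.499 CPM in 4 WD libraries and 89.9 CPM in WD 3, against 0 to 6.71 CPM in controls, and 5 mesothelial markers at 0.0726 to 108, 43.6 to 101 and 16.9 to 123 CPM. Adipocyte markers (Adipoq, Plin1, Lep, Cidec and Fabp4) summed to 4500 to 37222, 36268 to 45111 and 20828 to 35200 CPM, so that every WD library lay below every batch 2 control. Against the batch 2 controls, where Vcam1, Itgb2 and Itga4 were called, 4 of the 5 had an edgeR FDR under 0.05, with Adipoq, Plin1 and Cidec lower and Lep higher in WD, whereas 0 of the 5 did in batch 1 or over 14 libraries. The part of cell numbers in the values of the 9 genes was not tested.

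**Figure D4:**
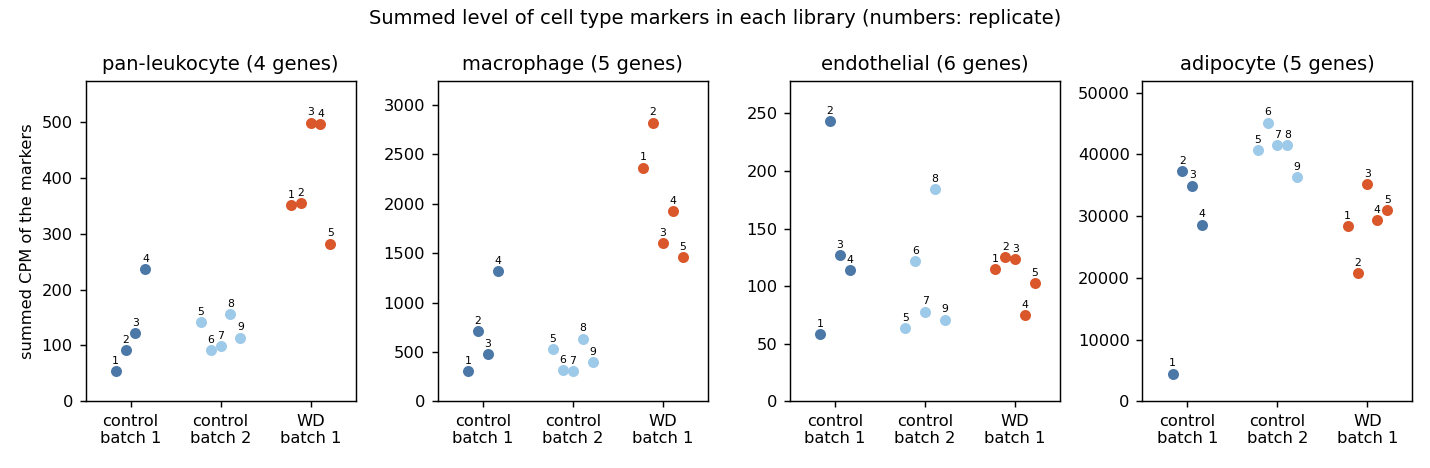
Summed CPM of pan-leukocyte, macrophage, endothelial and adipocyte markers (vertical axes from 0) in each library of control batch 1, control batch 2 and WD, numbered by replicate. WD libraries held 282 to 499 CPM of the pan-leukocyte markers against 54.5 to 237 in the controls, whereas the endothelial sums overlapped.

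Levels of the 6 leukocyte genes relative to Ptprc, the common leukocyte phosphatase, and of the 3 ligands relative to Pecam1, an endothelial junction protein, were compared as log2 ratios of CPM + 1, with the ratios of Itgam and Itgal to Itgb2 and of Itga4 to Itgb7. Of these 12 ratios, 0 had an exact permutation p under 0.05 in batch 1 or over 14 libraries. Relative to Ptprc, WD libraries differed from batch 1 controls by -0.70 for Itgam (p = 0.317), -0.37 for Itga4 (p = 0.595), 0.21 for Itgb2 (p = 0.825), 0.44 for Fermt3 (p = 0.754), -0.70 for Itgb7 (p = 0.325) and -1.30 for Itgal (p = 0.0873) by the exact permutation test. Ptprc itself had an edgeR log2 fold change of 1.47 (SE 0.57) in that comparison.

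Relative to Pecam1, Vcam1 differed by 0.84 in batch 1 (exact permutation p = 0.587) and by 1.33 over 14 libraries (p = 0.174). Control 4 had no count of Pecam1, which sets its ratios. Against the summed 6 endothelial markers, of which control 4 had 114 CPM, the ratio of Vcam1 was higher in WD by 1.48 in batch 1 and 1.61 over 14 libraries (exact permutation p = 0.00794 and 0.0005, the smallest possible). That of Icam1 differed by 1.53 in batch 1 (exact permutation p = 0.143) and by 1.72 over 14 libraries (p = 0.0260). No ratio of Vcam1 to leukocyte or macrophage markers was computed, although some macrophages make it. Over both control batches and in WD, Vcam1 averaged 20.4 and 61.0 CPM. The summed macrophage markers averaged 555 and 2034 CPM, and the pan-leukocyte markers 123 and 396 CPM. The part of macrophages in the Vcam1 level was not tested. Against the summed pan-leukocyte markers, the ratios of Itga4 and Itgb7 differed over 14 libraries by -0.60 (exact permutation p = 0.0490) and -1.34 (p = 0.0460), WD minus control on the log2 scale, and in batch 1 by -0.45 (p = 0.254) and -0.78 (p = 0.270).

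The ratio of Itgam to its partner Itgb2 differed by -0.91 in batch 1 (WD minus control, log2 scale, exact permutation p = 0.524), that of Itgal to Itgb2 by -1.51 (p = 0.222), and that of Itga4 to Itgb7 by 0.33 (p = 0.714). The spread of Itgb2 among the batch 1 controls, from 3 to 1187 counts, lies in the first 2 ratios.

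Among the other integrin genes, 10 of 15 further alpha chains passed the filter on low counts in batch 1, with 1 higher at an unadjusted p under 0.05 and 0 at an edgeR FDR under 0.05. It was Itgax (integrin alpha X, CD11c), another partner of Itgb2 on macrophages and dendritic cells, with 9.87 ± 9.58 CPM in batch 1 controls (SD, n = 4) and 57.5 ± 13.1 CPM in WD (n = 5). Its edgeR log2 fold change was 2.54 (SE 0.61, FDR 0.434) in batch 1 and 2.75 (SE 0.57, FDR 0.0278) over 14 libraries. Itga6, the laminin receptor chain, had a log2 fold change of 0.58 (SE 0.30) and Itgad, a further partner of Itgb2, 2.98 (SE 2.07) in batch 1.

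Of 7 further beta chains, 4 were tested in batch 1 and 0 had an unadjusted p under 0.05. Itgb1, the beta chain with which Itga4 binds Vcam1, had 353 ± 79.7 CPM in batch 1 controls (SD, n = 4) and 393 ± 75.3 CPM in WD (n = 5), a log2 fold change of 0.15 (SE 0.28), while Itgb3 and Itgb5 stood at -0.98 (SE 1.22) and 0.33 (SE 0.61).

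Of 20 genes of integrin activation and tail adaptors, 19 were tested in batch 1, with 3 higher at an unadjusted p under 0.05, 0 lower, and 0 at an edgeR FDR under 0.05. Fyb, an adaptor of leukocytes that links receptor signals to integrin activation, had 33.5 ± 17.6 CPM in batch 1 controls (SD, n = 4) and 105 ± 27.4 CPM in WD (n = 5). Its edgeR log2 fold change was 1.64 (SE 0.44, FDR 0.434) in batch 1 and 2.00 (SE 0.38, FDR 0.0169) over 14 libraries. The talins, which bind the same tails as Fermt3, had log2 fold changes of 0.84 for Tln1 (SE 0.29, FDR 0.627) and 1.12 for Tln2 (SE 0.47, FDR 0.877) in batch 1. Against the batch 2 controls, 4 of these genes had an edgeR FDR under 0.05 (Fyb, Tln1, Rap1b and Vav1, the last 2 named after their values were seen).

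Of 12 other ligands of endothelium and matrix, 9 were tested in batch 1, with 0 higher and 2 lower at an unadjusted p under 0.05 and 0 at an edgeR FDR under 0.05. The 2 were Cdh1, an epithelial cadherin and ligand of Itgae, with a batch 1 control value as high as 247 CPM and 0 CPM in every batch 2 control, and F11r, a junction molecule that binds LFA-1, at -1.13 on the log2 scale (SE 0.47). Fn1, fibronectin, stood at 0.93 (SE 0.44). Of 8 selectins and their carriers, 6 were tested, with 1 higher at an unadjusted p under 0.05, Spn (CD43), at 4.69 (SE 1.83), while Selplg stood at 2.07 (SE 1.22) and Cd44 at 0.93 (SE 0.72). Against the batch 2 controls, Cd44 had an edgeR FDR of 0.0104.

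The gene whose level ranked most like that of each member over the 14 libraries was found among 12653 genes, as a description. It was Sh3bgrl3 for Itgam (Spearman rho 0.934), St8sia4 for Itga4 (0.934), Plek for Vcam1 (0.938) and Gla for Itgb2 (0.952). For the genes with more libraries at 0 it was Cdc6 for Itgal (0.884), Dock5 for Itgb7 (0.871), Gpr35 for Icam1 (0.891) and Slc15a4 for Icam2 (0.891), where ties at 0 take part in the ranks.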

How the data were processed

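Per the methods and labels, the authors made QuantSeq 3′ libraries from eWAT RNA, read them single-end, used Bowtie2 for alignment and took per-gene counts, multiply aligned reads included, from bedtools, so a read of near-identical genes can stand in more than 1 row. The submitters' processing notes name mm10, and no tool versions were given in the sources used here. The deposited counts are raw whole numbers per gene. The authors also deposited log2 values of TMM-scaled CPM with 1 added, which were used only as an alternative. Gene positions are those of the deposited table (GRCm38), and overlaps were read from GENCODE vM21.

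Counts were tested with edgeR 4.0.16 (quasi-likelihood test, TMM, filterByExpr, FDR under 0.05) over the whole table, without covariates, in R 4.3.3. That test gives no SE, so each SE here is the size of the log2 fold change divided by the square root of the test's F statistic. Alternatives used DESeq2 1.42.0 and limma 3.58.1, other size factors and filters, batch as a covariate, a replicate block, each library left out in turn, a pseudocount of 0.1 in place of 1 CPM, and the deposited log2 values. Single genes were tested with two-sided exact permutation tests in Python 3.11.15, with no adjustment over the 9 genes and with TMM factors of the libraries compared. The labels number the libraries within a diet and do not say which mouse each came from, so p-values measure the spread between these libraries. No pair of libraries within a group was alike within sampling noise. The edgeR steps were tested on simulated counts in which 200 genes carried a log2 change of 3, and found 80 of them with 3 wrong calls in batch 1 and 111 with 8 wrong calls over all 14 libraries. The median log2 fold change of the 9 genes was smaller, 1.16 in batch 1 and 1.15 over 14 libraries. Recovery of changes of that size was not tested.

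The 9 genes and all gene lists were chosen with earlier results of these data known. Genes named in the text are the 9, at most 3 per list by lowest unadjusted p in batch 1, and the 1 gene most alike by rank to each member. Rap1b and Vav1 were named after their values were seen, and marker genes, genes overlapping a member and the reference genes of the ratios are named beside the values they bear on. Protein sequences were not used here. Promoters came from RefSeq for 5 of the 9 genes.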

Additional observations from a re-analysis of the deposited data

Results flagged for a closer look

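Itga4 in control 1 stood far from the other batch 1 controls, at 2.29 on the log2(CPM + 1) scale (36 counts) against 4.13 to 4.3995 in the other 3. By the same criterion, Dixon's ratio at its 95% value, 1 of 27 groups of libraries was singled out where chance gives 1.35. Control 1 was also the library with epididymis RNA and the lowest adipocyte sum, and their part in its Itga4 level was not tested. With control 1 left out, all 5 WD libraries still lay above all other controls.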

How the results depend on the processing

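Of 586 alternative fold changes of the 9 genes, 550 kept their direction and side of the threshold, as did 228 of 261 levels and 39 of 48 ratios. That threshold was an FDR of 0.05 for fold changes and an exact permutation p of 0.05 for levels and ratios. In the main fits only Itgb2, Itga4 and Vcam1 against the batch 2 controls passed that FDR, so most fold changes could change side only by gaining a call. Ratios of Itgam and Itgal to Itgb2 and of Itga4 to Itgb7 had no summed reference, so that alternative repeated their main values. Within batch 1, the count of the 9 with an unadjusted p under 0.05 (3) was 1 with the replicate block and 0 to 4 with a library left out (0 without WD 3). It was 2 with DESeq2's size factors, library totals alone, upper-quartile factors or no filter on low counts, each in edgeR. Itga4 had an unadjusted edgeR p of 0.0494 in the main fit, 0.0618 with DESeq2's size factors and 0.0733 with library totals alone. The count of all genes with an FDR under 0.05 (0) was 114 by DESeq2 and 0 to 48 with a library left out (48 without control 4). It was 108 without controls 1 and 4, an alternative added after seeing the data. The replicate block gave 0 of the 9 at an FDR under 0.05 and moved no other call. Replicate numbers did not pair libraries: correlations of same-numbered libraries were -0.02, 0.04, 0.05 and 0.08.

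Over 14 libraries, the 9 genes with an FDR under 0.05 (0) were 1 by DESeq2 and by limma-voom, 0 to 2 with a library left out, and 3 without controls 1 and 4. All genes (67) were 225 by DESeq2, 223 by limma-voom, 1 with batch as a covariate, 28 to 289 with a library left out (28 without WD 3, 289 without control 4) and 619 without controls 1 and 4. The 9 at an unadjusted p under 0.05 (3) were 6 by limma-voom, 2 with batch as a covariate and 3 to 4 with a library left out. Those at an exact permutation p under 0.05 (5) were 3 to 6 with a library left out. At that unadjusted p, limma-voom called 1127 of 12653 genes higher and 328 lower, against 567 and 411 in the main fit. The share of all genes at that exact permutation p was not computed. Ratios at an exact permutation p under 0.05 (0) were 1 in batch 1 and 4 over 14 libraries with summed markers as reference. Between batches of controls, all genes with an FDR under 0.05 (0) were 111 by DESeq2 and 0 to 2 with a library left out.

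The cause of the changes of sign was not tested. The batch 1 fold change of Icam2 (-0.08) was 0.70 with the replicate block and -0.49 to 0.33 with a library left out, and its level difference (0.01) was -0.00825 with the deposited log2 values, -1.02 to 0.79 with a library left out and -0.77 without controls 1 and 4. Over 14 libraries its fold change (0.16) was -0.12 with batch as a covariate, -0.67 by limma-voom and -0.17 to 0.48 with a library left out, and its level difference (-0.09) was -0.49 to 0.69. With a library left out, the batch 1 level difference of Itgal ranged from -0.018 to 0.96, and the fold change of Itgb7 against batch 2 controls from -0.59 to 0.34. Between batches of controls, it ranged from -0.54 to 0.087 for Itgam, -1.64 to 0.88 for Itgb2 (0.88 without control 4), -0.12 to 0.40 for Itga4 and -1.86 to 0.33 for Icam1. With a pseudocount of 0.1 CPM, the ratio differences in batch 1 were 0.26 for Itgb7 to Ptprc and -0.57 for Itga4 to Itgb7, and that of Fermt3 to Ptprc over 14 libraries was 0.38. With summed endothelial markers, Icam2 differed by 0.18 in batch 1. At a depth of 10278970 to 13712254 counts, the genes at 0 in 4 libraries (Itgal, Itgb7 and Icam1) had SE of 1.25 or more on the log2 scale. Changes of that size and also larger ones could go uncalled. Icam1 stood at 2.60 against the batch 2 controls (SE 1.38, edgeR FDR 0.364) and was not called.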
